A study of Drosophila melanogaster with 2 samples.

Results

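Mitochondrial ribosomal protein genes were taken as the protein-coding genes of the dm6 fly genome (Ensembl release 115) whose symbol starts with mRpL or mRpS, and 73 of 13945 protein-coding genes met this rule. Of these, 47 are named for the large ribosomal subunit and 26 for the small one. Binding was measured by chromatin immunoprecipitation and sequencing (ChIP-seq) with an antibody that the description gives as anti-GFP, while the antibody label names CG9876 itself, in whole fly embryos collected over 0 to 24 h, both sexes pooled, of 1 transgenic line that stably carries the homeobox protein CG9876 with GFP at its C terminus. The sequences that drive the fusion, and whether the native protein is also present, are not stated in the labels. There was 1 group with 2 biological replicates, no treated or untagged group, and the control libraries behind the peak calls were not analysed here. A member was called promoter-bound when the summit of a reproducible peak lay within 1 kb of any of its transcription start sites. Reproducible peaks are the 2433 regions that the authors kept by irreproducible discovery rate from candidate lists of 30000 regions. That rate rests on how alike regions rank in both replicates. All bound members had the same rank in the reproducible and the combined list, down to mRpL32 at 2347 in both. To that rank the list thus held the strongest combined regions, and a kept peak need not rank alike in the replicates. The summit is the base of highest enrichment. Peak lists from whole embryos mix all tissues and stages, so a weak signal in many cells and a strong one in few cannot be told apart.

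Mitochondria keep a ribosome of their own, which makes the few respiratory chain subunits encoded in mitochondrial DNA. Its RNA is mitochondrial, but its proteins are encoded in the nucleus, made in the cytosol and imported, so the nuclear genes must together supply parts in matching amounts. Many of these proteins descend from bacterial ribosomal proteins and keep their numbers, and others were added to the ribosome within mitochondria. Several small mitochondrial genes of the fly lie head to head with another gene, so that 1 short stretch of DNA serves as the promoter of both. The tagged protein, CG9876, belongs to the paired-like class of homeodomain proteins, which bind DNA with TAAT cores.

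DNA between the starts of 5 of the stronger bound members and their diverging neighbours is shown first, because their summits lay in it. The strong members mRpL41, mRpL23 and mRpL34 are not printed. For mRpS23 and mRpL4 300 of 491 and of 792 bases are shown, and the mRpS23 stretch, on the side of its neighbour, ends short of the member's start. Each sequence runs 5′ to 3′ on the member's strand and holds no annotated exon. Capitals mark CGATA, which is part of the DNA replication-related element (DRE, TATCGATA), and CAGCTG, a symmetrical E-box, on either strand, and the stretch of mRpL24 holds neither. The sequences lie at chr2L:13835264-13835563 (mRpS23, minus strand, summit at base 111), chr3R:15229409-15229664 (mRpS10, plus strand, base 118), chr3R:9515909-9516006 (mRpL47, minus strand, base 17), chr2L:16329133-16329432 (mRpL4, minus strand, base 197) and chr2L:4945362-4945578 (mRpL24, minus strand, base 31), from the RefSeq dm6 sequence.
mRpS23: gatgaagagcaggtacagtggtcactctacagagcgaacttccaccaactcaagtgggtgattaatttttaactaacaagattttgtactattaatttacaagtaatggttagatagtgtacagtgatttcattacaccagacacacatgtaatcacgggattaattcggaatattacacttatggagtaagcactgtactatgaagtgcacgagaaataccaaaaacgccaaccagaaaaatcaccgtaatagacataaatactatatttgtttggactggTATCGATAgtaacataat
mRpS10: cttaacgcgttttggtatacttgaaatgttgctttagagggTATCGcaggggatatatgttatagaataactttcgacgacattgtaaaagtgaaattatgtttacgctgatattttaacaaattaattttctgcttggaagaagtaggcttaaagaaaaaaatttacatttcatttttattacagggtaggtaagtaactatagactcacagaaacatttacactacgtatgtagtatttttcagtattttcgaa
mRpL47: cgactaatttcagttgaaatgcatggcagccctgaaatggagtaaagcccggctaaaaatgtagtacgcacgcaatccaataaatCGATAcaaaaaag
mRpL4: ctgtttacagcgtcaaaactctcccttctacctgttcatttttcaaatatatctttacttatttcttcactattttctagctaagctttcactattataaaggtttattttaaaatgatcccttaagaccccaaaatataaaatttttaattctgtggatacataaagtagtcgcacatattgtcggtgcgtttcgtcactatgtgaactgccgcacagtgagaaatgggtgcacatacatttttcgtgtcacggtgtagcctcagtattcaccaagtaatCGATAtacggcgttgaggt
mRpL24: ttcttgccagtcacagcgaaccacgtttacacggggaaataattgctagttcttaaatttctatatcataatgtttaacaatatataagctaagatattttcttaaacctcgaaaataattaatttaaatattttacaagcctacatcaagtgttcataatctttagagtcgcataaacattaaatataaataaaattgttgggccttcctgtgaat

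In the mRpS23 stretch a full DRE lies in the last bases shown, between the summit and the gene but not at its start. For contrast, the sequences before 2 members with no listed region in any of the 4 lists follow, at chrX:2344650-2344948 (mRpL14, minus strand) and chr3L:8125133-8125326 (mRpL36, minus strand). They hold the same CGATA core, and the one of mRpL14 holds an E-box.
mRpL14: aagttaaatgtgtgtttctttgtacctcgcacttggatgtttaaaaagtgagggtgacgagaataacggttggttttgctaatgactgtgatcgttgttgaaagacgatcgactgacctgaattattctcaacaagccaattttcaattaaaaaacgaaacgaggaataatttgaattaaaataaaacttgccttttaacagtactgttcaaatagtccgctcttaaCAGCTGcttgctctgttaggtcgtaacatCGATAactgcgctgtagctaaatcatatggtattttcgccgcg
mRpL36: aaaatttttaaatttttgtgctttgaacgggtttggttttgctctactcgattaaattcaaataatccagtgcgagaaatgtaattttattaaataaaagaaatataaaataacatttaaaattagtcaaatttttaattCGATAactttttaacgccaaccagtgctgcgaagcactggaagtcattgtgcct

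Tagged CG9876 was recovered at the promoters of 17 of the 73 members (23.3%), against 15.8% of all protein-coding genes. The strongest regions of the replicates, as many as there were reproducible peaks, gave 26.0% of members in replicate 1, beside 15.8% of all genes, and 23.3% in replicate 2, beside 15.3%. The replicate mean was 24.7% ± 1.94 (SD, n = 2). With 1 group, no contrast between conditions exists, and the list was chosen with results known, so counts stand beside the share of all genes without a test. The 17 members had 17 different peaks, 1 each.

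mRpL41, mRpS23 and mRpS10 stood far above the rest in both replicates, and each shares its promoter region with a neighbour on the other strand. mRpL41, a large-subunit gene on 2R, had a signal of 1077 in the list from both libraries combined, 590.8 in replicate 1 and 491.7 in replicate 2, ranks 8, 7 and 8 of 30000. mRpS23, a small-subunit gene on 2L (peak 13835314 to 13835602, summit 13835453), had 842.7, 449.1 and 391.4, ranks 18, 24 and 15. mRpS10, on 3R (peak 15229382 to 15229684, summit 15229526), encodes the relative of bacterial S10 in the head of the small subunit and had 830.1, 439.7 and 389.6, ranks 19, 28 and 16. The signal value is the authors' own score of a region and is comparable only within a list. These 3 members lay within 1 kb of 3 of the 20 strongest reproducible peaks. Over all protein-coding genes, 21 had 1 of these 20 peaks within 1 kb.

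The next members were of the large subunit. mRpL23 on 3L (peak 2373489 to 2373729), whose bacterial relative L23 lies at the exit of the peptide tunnel, had 395.8 combined, 196.3 in replicate 1 and 193.4 in replicate 2. mRpL34 on 2R had 260.2, 128.6 and 135.4. mRpL47 on 3R (peak 9515918 to 9516020), the relative of bacterial L29, which also lies near the tunnel exit, had 242.3, 144.8 and 89.7. All 3 ranked within the strongest 341 regions of the combined list, and mRpL47 was placed lower in replicate 2 (rank 619) than in replicate 1 (rank 264).

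Among members with middle values, mRpL4 and mRpL53 were uneven between the replicates, as mRpL47 was. mRpL4 on 2L (peak 16329051 to 16329420), whose bacterial relative lines the peptide tunnel, had 179.5 in the combined list but rank 1385 in replicate 1 (61.2) and rank 401 in replicate 2 (112.3). mRpL24 on 2L (peak 4945363 to 4945732), another tunnel exit protein in bacteria, had 169.7, 81.7 and 97.8, with rank 853 in replicate 1 and 527 in replicate 2. mRpL53 on 2R had 152.3, 90.0 and 55.4, with rank 712 in replicate 1 and 1693 in replicate 2. Ranks were better in replicate 1 for 7 of the 17 and in replicate 2 for 10, so neither replicate led throughout.

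The other 8 bound members ran from 125.7 (rank 1250) to 87.4 (rank 2347) in the combined list. The lowest reproducible signal was 85.4, and of the 8 only mRpL32 lay close to it. They were mRpS2 (125.7), mRpS26 (121.9), mRpL35 (120.0), mRpL13 (113.5), mRpL18 (108.6), mRpL21 (108.4), mRpS22 (104.3) and mRpL32 (87.4). mRpS2 and mRpS26 encode small-subunit proteins, and each had similar ranks in the replicates. mRpS2, the relative of bacterial S2, was at 62.3 in replicate 1 and 65.5 in replicate 2, ranks 1340 and 1192. mRpS26 was at 61.5 and 58.4, ranks 1373 and 1517. mRpL35 was similarly even in rank, at 54.9 and 58.6, ranks 1625 and 1498. Some of the others differed more in rank between the replicates. mRpL18 was at 61.6 and 48.5, ranks 1364 and 2208, and mRpS22 was at 53.4 and 45.4, ranks 1688 and 2558. mRpL21 went the other way, with 49.5 and 62.5, ranks 1907 and 1305. mRpL13, whose bacterial relative joins the large subunit early in assembly, was at 69.0 in replicate 1 and 37.0 in replicate 2, rank 1150 against 3853. mRpL32 was outside the 2433 strongest regions of both replicates (ranks 2677 and 2588). It was also the only bound member above the lowest q-value of the list, which the other 16 shared with 88.0% of reproducible peaks (q = 2.3e-04). Both replicates placed 14 of the 17 among their 2433 strongest regions, with mRpL13 and mRpS22 in those of replicate 1 alone, and mRpL32 in neither.

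**Figure D1:**
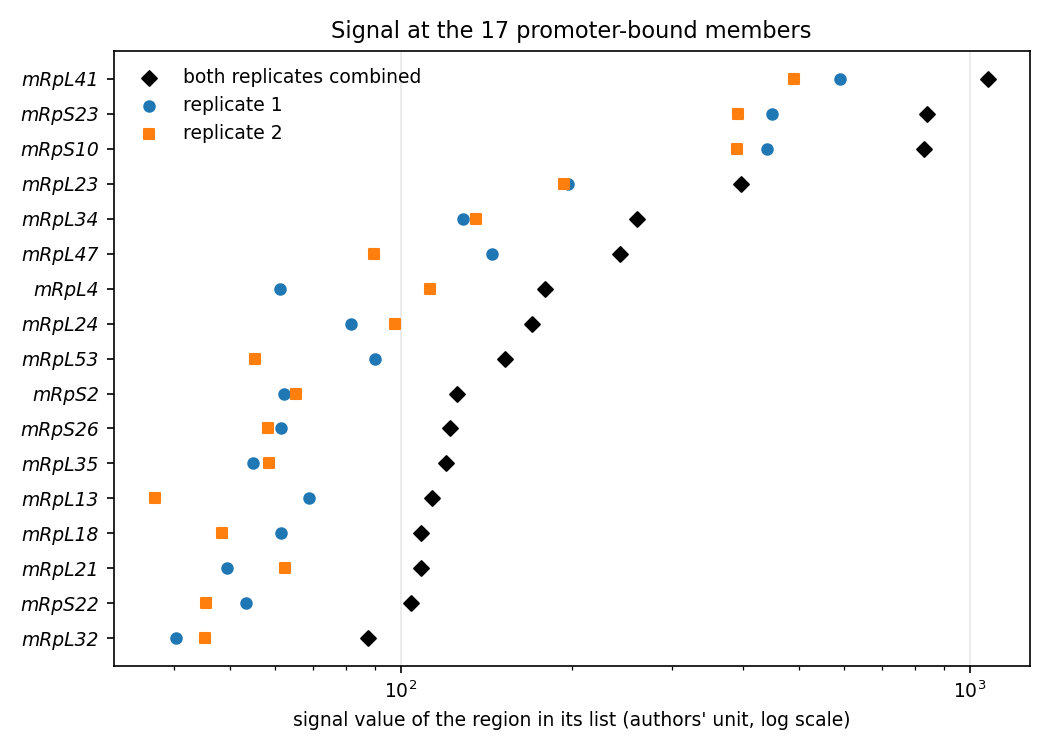
Signal value of the region at each of the 17 promoter-bound members (log scale, authors' unit), with 1 point for the combined list and 1 for each replicate. mRpL41, mRpS23 and mRpS10 lie above all other members in every list, and mRpL13 has the lowest value of replicate 2 (37.0).

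Over the bound members the median combined signal was 152 (n = 17), beside 137 over all 2199 bound genes. In replicate 1 the medians were 69.0 and 73.1, and in replicate 2 they were 65.5 and 65.1. Within the reproducible list, 9 of the 17 peaks (52.9%) were in the stronger 1216, beside 54.8% of all bound genes. The rank correlation of the replicates' signals was 0.74 across the 17 bound members and 0.18 across 32 unbound members with a region in both replicates. Each replicate's strongest region within 1 kb was used, and at some unbound members these were different sites. At mRpL54, for example, the summits lay at 774 bp in replicate 1 and -152 bp in replicate 2. The 0.18 thus does not measure agreement at the same regions throughout. These points share libraries, and the bound ones were selected by the reproducible list. All bound members lay above its lowest combined signal of 85.4 and all unbound ones below it, which limits their spread.

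Almost every bound member had a diverging partner, meaning a protein-coding gene on the other strand that starts within 1 kb upstream. This was so for 16 of the 17, and for 58 of all 73 members (79.5%) beside 36.2% of all protein-coding genes. Genes with such a partner were bound more often across the genome, 28.6% of 5052, beside 8.49% of the 8893 genes without one. Among members with a partner 16 of 58 were bound (27.6%), and among the 15 without one, 1 was bound (6.67%). Set beside genes of the same arrangement, the members' shares were thus slightly below the background in both classes, whereas over the whole list they were above it. The rule counts a summit between the starts for both genes, and which of the pair it serves was not measured.

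The partners of the bound members had various functions. mRpS23 is paired with CenG1A, a GTPase-activating protein gene, mRpS10 with Art3, an arginine methyltransferase gene, and mRpL41 with CG8079. mRpL34 faces Dg, which encodes the membrane receptor dystroglycan, and mRpL53 faces AGO1, the Argonaute of the microRNA pathway. mRpL21 faces rept, an ATPase of chromatin remodelling complexes, mRpL24 faces betaggt-I, a protein prenyltransferase subunit, and mRpS2 faces Mon1, which acts in endosome maturation. Mitofilin, which shapes the inner mitochondrial membrane, Taz, which remodels the mitochondrial lipid cardiolipin, and qless, which acts in coenzyme Q synthesis, face mRpL35, mRpL18 and mRpL32. These 3 were singled out after their identity was seen, and the other 5 partners, CG9004, CG8176, CG4440, CG13698 and CG5003, carry no name in the annotation. The exception without a partner, mRpL13, shares its start with CG10602, 112 bp from the summit, and mRpL53 shares its start with CG33155. These peaks therefore cannot be assigned to 1 gene of the pair. At mRpL47 Kdm3 also starts near the summit, no farther from it than mRpL47, so 3 genes start within 1 kb of that peak's summit.

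Within the shared promoters the summit lay between the starts of both genes at 13 of the 16 pairs. It was closer to the member's start in 6 pairs, namely those of mRpL41, mRpL23, mRpL34, mRpL4, mRpL53 and mRpL32, and closer to the partner's start in 10. The median distance was 176 bp to the member's start and 120 bp to the partner's. At mRpS23 the summit was 381 bp upstream of the member and 111 bp from the start of CenG1A. At mRpS10 it was 139 bp from the member and 118 bp from Art3, near the middle of a gap of 257 bp. At mRpL41 it was 127 bp from the member, far from CG8079 across a gap of 762 bp. At mRpS2 and mRpL47 it was 19 and 17 bp from the partner's start. The 3 summits outside the interval were that of mRpL23, 62 bp inside the member, and those of mRpL18 and mRpL35, which lay 174 bp inside Taz and 106 bp inside Mitofilin. When each peak was given only to the gene with the nearest start, 7 members remained bound, the 6 named above and mRpL13. That was 9.59% of members beside 10.9% of all genes, so by this rule the members' share was below the background instead of above it.

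**Figure D2:**
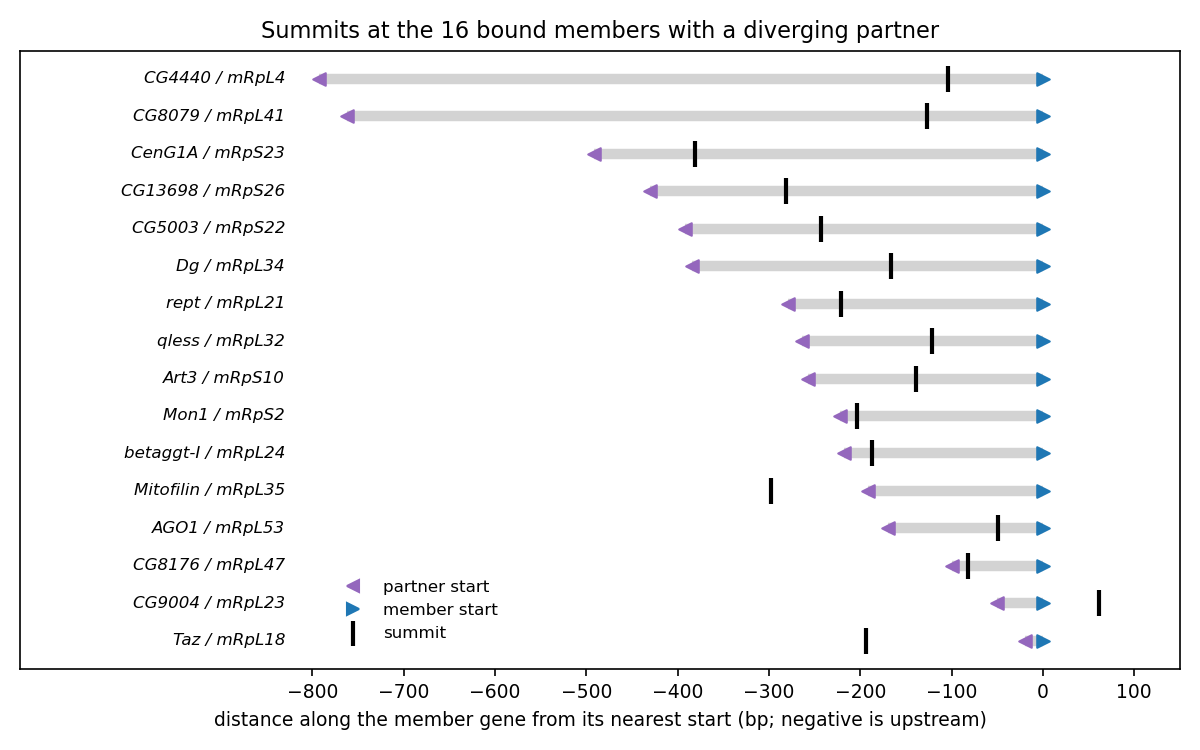
Position of the summit (black bar) at the 16 bound members with a diverging partner, in bp from the member's nearest start, with the partner's start as the far end of the grey interval. mRpL23 has 3 starts, and the one nearest its summit is not its 5′ end. Summits lie between the starts in 13 pairs, and at mRpL23, mRpL18 and mRpL35 they lie outside.

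The summit was upstream of the member's start in 16 of the 17, with a median position of -166 bp, beside -111 bp over all bound genes, of which 84.4% had an upstream summit. Only mRpL23, mRpL47 and mRpL53 had a summit within 100 bp of a start (3 of 73 members, 4.11%, beside 6.53% of all genes). The gap between member and partner had a median of 260 bp for bound members (20 to 793 bp) and 290 bp for unbound ones (21 to 695 bp). By gap, 3 of 18 members were bound at up to 100 bp (26.3% of all such genes), 4 of 7 above that and up to 250 bp (30.8%), 7 of 28 above that and up to 500 bp (31.6%) and 2 of 5 above (23.6%). The counts are small, and bound members occurred at every gap size.

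Lists of related genes were set beside the members. Of 92 cytosolic ribosomal protein genes 76.1% were bound, 89.1% of those with a diverging partner and 56.8% of those without. The summit at these genes lay at the start itself, with a median distance of 37.5 bp and 88.6% of bound genes within 100 bp, beside 166 bp and 17.6% for the mitochondrial ribosomal protein genes. Of 92 respiratory chain and ATP synthase genes, whose products include the partners of what the mitochondrial ribosome makes, 14.1% were bound (23.9% with a partner), led by ND-MWFE (349.5) and COX6B (182.6). Both lists were drawn by symbol, the cytosolic one by symbols that start with RpL or RpS. They can therefore take in relatives of the subunits, such as COX4L in the respiratory list. These shares were not tested against each other.

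Other genes of mitochondrial gene expression (49 genes for translation factors, aminoacyl-tRNA synthetases, mitochondrial DNA and RNA maintenance and ribosomal proteins under other symbols) were bound in 6 cases (12.2%). These were PNPase, an RNA-degrading enzyme (854.2), mtSSB, which coats single-stranded mitochondrial DNA (257.8), ThrRS (173.8), tko (111.8), LeuRS-m (104.3) and PolrMT, the mitochondrial RNA polymerase (88.6). tko encodes the mitochondrial relative of ribosomal protein S12 and is a mitochondrial ribosomal protein gene whose symbol the rule does not reach. The remaining genes of this kind, bonsai and CG4866, were not bound.

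**Figure D3:**
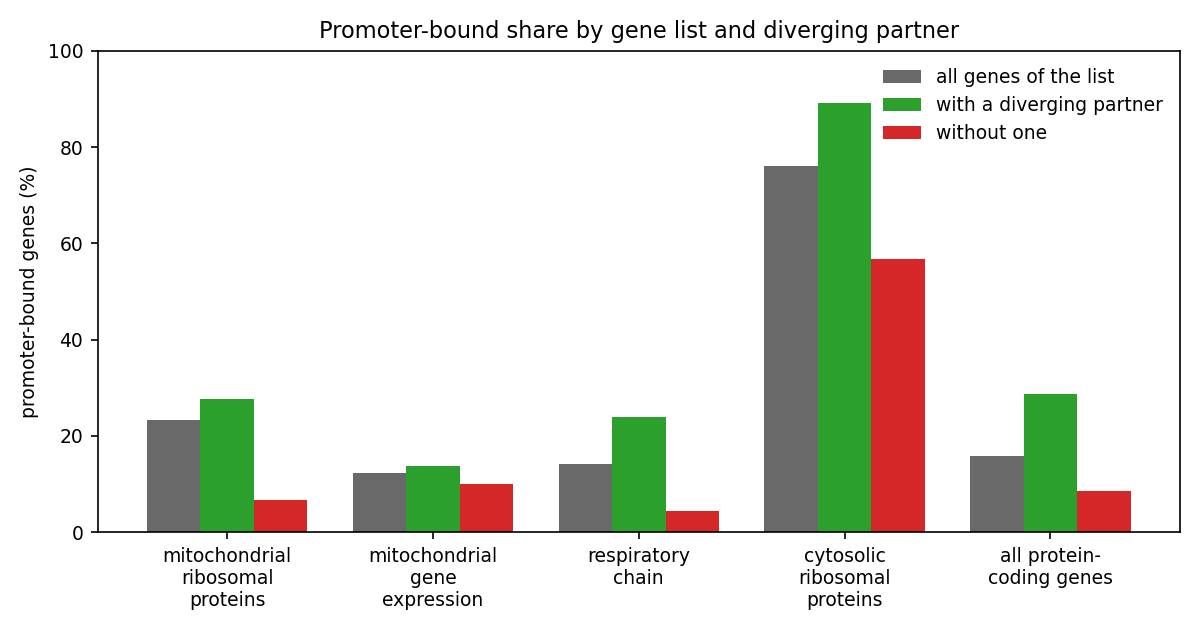
Percent of genes with a reproducible summit within 1 kb of a start, for each list as a whole (grey), for its genes with a diverging partner (green) and for those without (red). For mitochondrial ribosomal protein genes the bars stand at 23.3, 27.6 and 6.67%, and for all genes at 15.8, 28.6 and 8.49%.

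Bound members came from both subunits and from proteins with bacterial and with higher numbers. Of large-subunit genes 12 of 47 were bound (25.5%) and of small-subunit genes 5 of 26 (19.2%). Members numbered as in bacteria (L1 to L36, S1 to S21) were bound in 11 of 42 cases, and those with higher numbers in 6 of 31. The numbers are only a guide to descent, since mRpL47 corresponds to a bacterial protein. Split by both subunit and numbering, the highest share was 9 of 28 (32.1%) among large-subunit genes with bacterial numbers. These shares stand beside 15.8% of all genes and 28.6% of genes with a diverging partner, and were not tested. By arm, 5 of 12 members were bound on 2L (15.6% of all genes there), 4 of 12 on 2R (14.4%), 3 of 17 on 3L (16.1%) and 5 of 21 on 3R (17.5%). On X, 0 of 11 were bound, beside 14.8% of all genes there. The 8 X-linked members with a combined region ran from 29.3 to 80.0, with a median of 49.0. Most members (67 of 73) had a single annotated start, and 15 of these 67 were bound (22.4%) beside 12.1% of all genes with a single start.

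The 56 unbound members were seldom without any listed region. Counting every region of the combined list, which includes background by construction, 63 of 73 members had one (86.3%) beside 61.3% of all genes. The 46 unbound members with a combined region ran from 27.7 to 80.7, with a median of 46.0, beside 42.2 over all unbound genes with one. The summit was upstream of the start in 34 of the 46. The strongest of them were just short of the reproducible list, namely mRpS21 (80.7), mRpS25 (80.0), mRpS31 (78.8) and mRpL11 (75.7). They were followed by mRpL20 (70.2), mRpL51 (69.7), mRpS17 (68.9), mRpS6 (66.3), mRpL12 (61.2), whose relative in bacteria forms the stalk of the large subunit, and mRpS14 (60.5).

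Some of these were strong in 1 replicate only. mRpS21 ranked 1390 in replicate 1 (61.0) and 17122 in replicate 2 (19.7), while mRpS31 ranked 10493 in replicate 1 (24.0) and 1405 in replicate 2 (60.3). mRpL51 ranked 15889 with a summit at -190 bp in replicate 1 and 2384 with a summit at -12 bp in replicate 2. Its 2 ranks may therefore be of different regions. By contrast mRpS25 was even, at ranks 2977 and 3199. Taken alone, the strongest regions of replicate 1 added mRpS21, mRpL11 and mRpS11 to the bound members, and those of replicate 2 added mRpS31, mRpL51 and mRpL19. No unbound member reached that level in both.

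No combined region lay within 1 kb of 10 members, namely mRpL14, mRpL30, mRpL36, mRpL49, mRpS9, mRpS18C, mRpS24, mRpS28, mRpS33 and mRpS34. For 6 of them (mRpL14, mRpL36, mRpS18C, mRpS28, mRpS33 and mRpS34) no list held a region. Signal was not measured outside listed regions, so this does not show its absence. Of the 3 members named for S18, mRpS18A (46.3) and mRpS18B (51.6) had a combined region and mRpS18C had none.

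**Figure D4:**
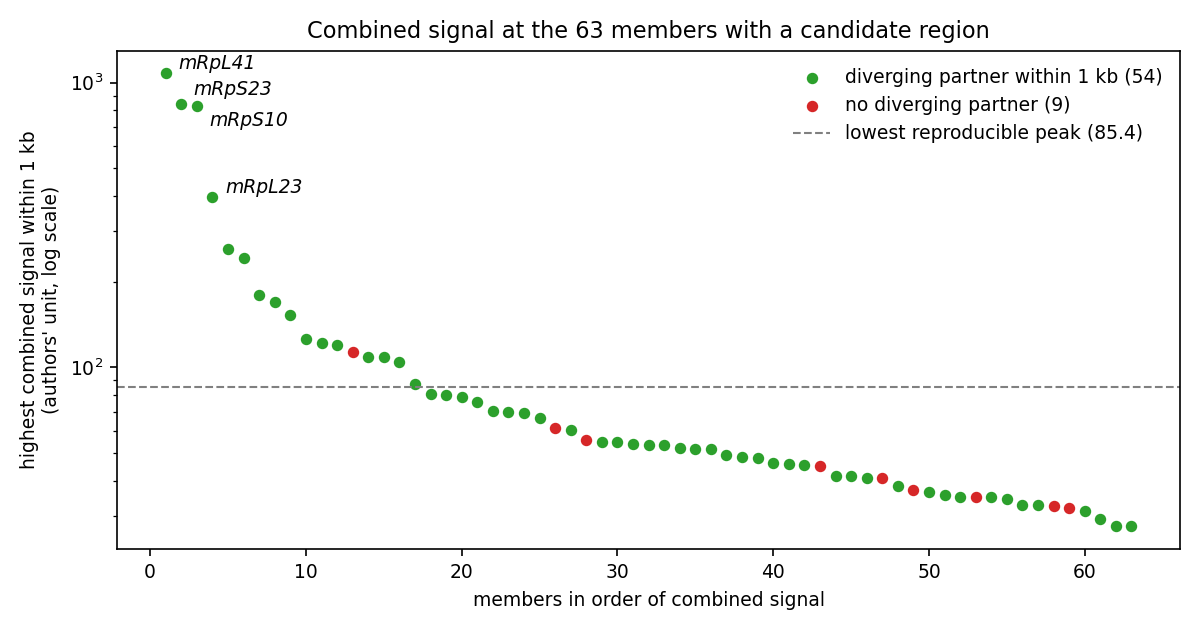
Highest combined signal (log scale, authors' unit) within 1 kb of each of the 63 members with a region, in descending order, coloured by whether a gene diverges from it. The values fall without a break through the lowest reproducible signal (85.4, dashed), and 9 of the 63 have no partner.

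More member promoters held the E-box than the DRE. CAGCTG occurred from 250 bp before to 50 bp after the start in 40 of 73 members (54.8%), beside 17.7% of all protein-coding promoters and 22.0% of those with a diverging partner. It was present at 11 of the 17 bound members and 29 of the 56 unbound ones. Of members with the E-box 27.5% were bound, and of those without it 18.2%, beside 20.1% and 14.8% of all genes. The other mitochondrial gene expression genes held it in 46.9% of cases, respiratory chain genes in 23.9% and cytosolic ribosomal protein genes in 9.78%. A match describes the letters of the sequence and not the binding of a factor.

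The E-box copies of the members lay mostly close to the start of the gene. Within 100 bp on either side of the start, 38 members (52.1%) held one, beside 13.8% of all genes. Over the members, 45 copies had a median position of 2 bp after the start, beside -51 bp over all genes. Within 100 bp of the summit 3 of 17 bound members had one, beside 10.9% of all reproducible summits. The copies nearest the start are printed for 8 bound members, each with 12 bases on either side on the member's strand and the E-box in capitals, so that their flanking bases can be compared. They lie at chr3L:2373715-2373744 (mRpL23), chr3R:9515873-9515902 (mRpL47), chr2L:4945324-4945353 (mRpL24), chr2L:4850413-4850442 (mRpS2), chr3R:22023510-22023539 (mRpL35), chr2L:18859193-18859222 (mRpL13), chr3L:19255067-19255096 (mRpL21), chr3R:31252844-31252873 (mRpL32).
mRpL23: gtggttgacaatCAGCTGtttaaaacaagt
mRpL47: ttgttattgcttCAGCTGttttgttcggtc
mRpL24: ttcagttctcaaCAGCTGattgcaagccgc
mRpS2: aacactacccacCAGCTGtttaccaaaatc
mRpL35: gtgaatggcacaCAGCTGactgttacgcga
mRpL13: cacactgtctgcCAGCTGagaaattatttt
mRpL21: cgcatgctaacaCAGCTGttcgaaaacgcg
mRpL32: atatcgatagcaCAGCTGtttcctcttgcg

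A flanking A placed 2 bases before the E-box together with a T placed 2 bases after it was found at 21 of the 40 member sites (52.5%), beside 29.0% of sites in all genes. The wider core promoter element known as Ohler motif 5 matched 18 of the 40 (45.0%) beside 19.9%. These flanks were examined after the sequences were seen.

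The DRE (TATCGATA) occurred in 15 members (20.5%), beside 9.36% of all promoters and 15.8% of those with a diverging partner. It was present at 3 of the 17 bound members, mRpS23, mRpL4 and mRpL32, and at none within 100 bp of the summit, where 6.04% of all reproducible peaks had it. Its core CGATA, which every DRE contains, was within 100 bp of the summit at 9 of the 17, beside 35.0% of all reproducible summits. In promoters CGATA was in 58.9% of members, beside 47.4% of all promoters and 59.2% of those with a partner. It was in 52.9% of bound members and 60.7% of unbound ones. Ohler motif 1 (GGTCACACT) was in 8 members (11.0%, beside 6.05% of all promoters and 10.4% of those with a partner), of which mRpL13 was bound (1 of 8, 12.5%, beside 21.5% of all genes with the motif). GAGAG was in 12 members (16.4%) beside 29.7%.

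TAATTA, a core that homeodomains bind, was about as frequent in the members as elsewhere. It was in 15 members (20.5%) beside 20.4% of all promoters, in 3 of the 17 bound ones, and within 100 bp of 1 of their 17 summits, beside 11.3% of all reproducible summits. The paired-class palindrome P2, a TAAT and its inverted copy with 2 bases between them, which can overlap TAATTA, was in 7 members (9.59%) beside 2.90% of all promoters, and 0 of the 7 were bound, beside 14.4% of all genes with P2. The palindrome with 3 bases between, P3, was in 2 members (2.74%), beside 3.11% of all promoters and 3.66% of those with a partner. Of these 2, mRpL21 was bound. It was the only 1 of the 17 bound members with P3 within 100 bp of the summit, beside 1.52% of all reproducible summits. The TATA box (TATAAA) was in 34 members (46.6% beside 45.8%), the NRF-1 core (TGCGCA) in 6 (8.22% beside 6.96%), the ETS core (CCGGAAG) in 0 beside 1.09%, and CTTTT within 5 bp of the start, as in the initiator of cytosolic ribosomal protein genes, in 1 (1.37% beside 1.94%).

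**Figure D5:**
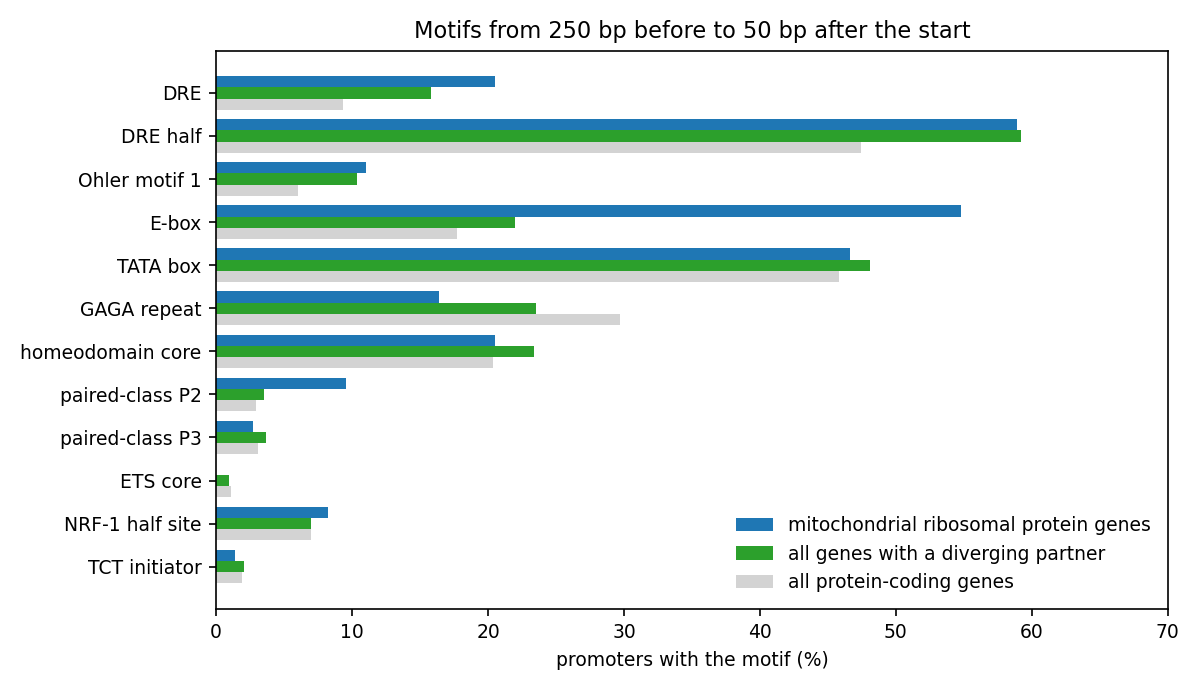
Percent of promoters that hold each motif from 250 bp before to 50 bp after the start, on either strand except for the initiator, for the 73 members (blue), all genes with a diverging partner (green) and all protein-coding genes (grey). The E-box bar of the members stands at 54.8%, against 22.0 and 17.7%.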

How the data were processed

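ChIP-seq regions came from 2 biological replicates, and labels number them 1 and 2. Per the deposited text files, the authors called regions on each replicate and on both combined against a control, then chose reproducible peaks by irreproducible discovery rate. Aligner, caller, depth and thresholds: not given in the sources used here. Each of the deposited lists holds a signal value (column 7, authors' unit) and −log10 of a q-value (column 9) per region. The dm6 lists have 30000 candidate regions each and 2433 reproducible peaks. The dm3 lists were not used.

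Summits (counted from 1) were assigned to Ensembl release 115 starts within 1 kb, and where several fitted, the highest signal was kept. Motifs were matched on the RefSeq dm6 sequence, with 1 start per gene, its 5′ end. Members, lists, motifs and alternatives were chosen with earlier results of these data known. Of the names in the mitochondrial gene expression list, 4 matched no single gene and were left out. Named genes were all bound members with their partners, the 10 strongest unbound ones, those with no combined region, and up to 4 bound genes of each comparison list with the highest signal. LeuRS-m, PolrMT, bonsai, CG4866, mRpS11, mRpL19, mRpS18A and mRpS18B were named after their values were seen. Comparisons rest on genes and peaks, not replicates, and no test was made. Checked on simulated data, 200 of 200 planted summits and motifs were recovered. Python 3.11.15, pandas 2.3.3, numpy 2.4.6 and matplotlib 3.10.9 were used. Alternatives cover windows, peak lists, replicates, partner gaps and backgrounds.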

Additional observations from a re-analysis of the deposited data

How the results depend on the processing

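The count of 17 bound members stayed within 1.5 times with summits allowed up to 500 bp (17) or 2 kb (23) from a start, with any overlap of the peak (17), with 1 start per gene (17) and with each replicate alone (17 to 19). It moved to 3 with a window of 100 bp, 9 with the stronger 1216 peaks, 7 when each peak went to the nearest start only, and 63 with any combined region. The percent of all genes bound, 15.8 at first, was 6.53, 8.63, 10.9 and 61.3 in the same settings. With the nearest start only, the all-gene share stayed within 1.5 times while the members' did not, and the members' share (9.59%) was below it. Replicate lists shared 14 of the bound members. The median signal of 152 became 65.5 to 69.0 in the replicate lists, which have their own scale. Members with a partner numbered 53 to 59 with gaps of 500 bp and 2 kb, of which 14 to 16 were bound. The backgrounds of genes with a partner (28.6% bound, beside 15.8% of all), of genes with a single start (12.1%) and of diverging promoters for motifs were added after seeing the data. No paired analysis was possible because there was 1 group. The depth of the libraries is unknown, which limits what the weak regions show.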
